A study of Arabidopsis thaliana with 22 samples.

Results

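The chloroplast genome of Arabidopsis thaliana is a small circular genome that every plastid carries, including the unpigmented plastids of roots. The transcripts described here are those of its genes that the ATH1 array (an Affymetrix array of short DNA probes) measures with a probe set of their own. This set was picked with earlier results of these data known. Its members were then fixed by annotation alone: every probe set whose annotation names exactly 1 chloroplast gene, with no filter on signal. This gave 69 probe sets for 69 genes among the 22810 probe sets of the array, against 84 chloroplast genes in the RefSeq gene table. Another 8 probe sets match several copies of genes in the inverted repeat or the split gene rps12, and were kept apart.

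The study measured RNA from roots of 10-day-old plants of the accession Col-0 on 22 arrays. Roots of plants that had not been transferred (2 arrays) were compared with roots of plants moved to MGRL agar (a defined nutrient medium) with 0 µM or 1500 µM sulfate and taken 2, 4, 8, 12 or 24 h later, with 2 arrays in each of these 10 groups. The untreated arrays are labelled with 1500 µM sulfate at 0 h, and all groups share the wild-type genotype. Each group has 1 array lettered A and 1 lettered B. The labels do not say what a letter stands for, nor that the 2 arrays of a group come from separate cultures, so p-values measure the spread between these arrays only.

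As background, chloroplast genes lie mostly in clusters that are transcribed together and then cut into smaller RNAs. A bacterial-type polymerase, whose core subunits rpoA, rpoB, rpoC1 and rpoC2 are chloroplast genes, transcribes most photosynthesis genes, while a phage-type polymerase encoded in the nucleus transcribes genes such as accD and the rpoB cluster. Root plastids contribute to starch storage, fatty acid synthesis and amino acid synthesis, including the reductive steps of sulfate assimilation, and hold little of the photosynthetic apparatus.

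Values are MAS5 signals, a linear intensity per probe set, and differences are on the scale of log2(signal + 11), which understates the change of weak probe sets. Probe sets of different genes bind with different strength, so no level is set against that of another gene. A probe set was tested where its mean passed the 40th percentile of all probe sets, a signal of about 27. Of the 69 transcripts, 57 passed and 12 did not: ndhF, ndhG, ndhH, ndhJ, ndhK, psbN, petD, petN, atpI, rpoB, rps14 and rps16. A change was called at an adjusted p under 0.05 over all 13648 probe sets tested. Because the RNA came from whole roots, fewer plastids or cells and less RNA in each cannot be told apart.

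All 22 arrays carried the root markers PYK10, at a signal of 2041 to 4072, EXPA7, at 92.6 to 185, and EXPA18, at 90.7 to 217. These were the 3 of 10 listed root markers matched in the analysed annotation. PYK10 is the root beta-glucosidase of endoplasmic reticulum bodies, and both expansins mark root hair cells. Of 66 listed nuclear photosynthesis genes, 11 were matched in the analysed annotation, and 6 of these passed the filter. Replicate arrays correlated at r = 0.96 to 0.983 over all probe sets, and the highest signal on an array lay between 2649 and 5522.

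The 4 marker transcripts of the set were measurable on root RNA, but their levels fell into 2 ranges that followed the letter of the array. psaA encodes a core subunit of photosystem I. On the A arrays its signal was 35.7 untreated, 57.9, 83.9, 126, 66.2 and 47.9 at 2, 4, 8, 12 and 24 h without sulfate, and 186, 57.4, 68.3, 72.4 and 92.9 with sulfate. On the B arrays it was 261 untreated, 218, 188, 277, 250 and 224 without sulfate, and 278, 268, 269, 205 and 234 with sulfate. The highest A array, sulfate-replete at 2 h, stayed just below the lowest B array, sulfate-free at 4 h, so the letters did not overlap.

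atpH encodes the ring subunit of the chloroplast ATP synthase. Its A arrays read 57.3 untreated, 73.4, 86.2, 103, 77.3 and 43 without sulfate, and 145, 95.3, 94.1, 79 and 89.6 with sulfate. Its B arrays read 294 untreated, 225, 160, 244, 212 and 218 without sulfate, and 250, 302, 276, 219 and 244 with sulfate. Again every B array was above every A array, and the replete 2 h array was the highest of the A arrays.

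psbD, for the D2 protein of the photosystem II reaction centre, read 18.8 to 58 on the A arrays with a median of 34.6, and 67.8 to 117 on the B arrays with a median of 81.3. psbB, for the CP47 antenna protein of photosystem II, read 14.5 to 101 on the A arrays with a median of 46.1, and 93.2 to 152 on the B arrays with a median of 114. The letters of psbD did not overlap, and those of psbB overlapped through 1 A array, sulfate-replete at 2 h, which read 101 where its B partner read 93.2.

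**Figure D1:**
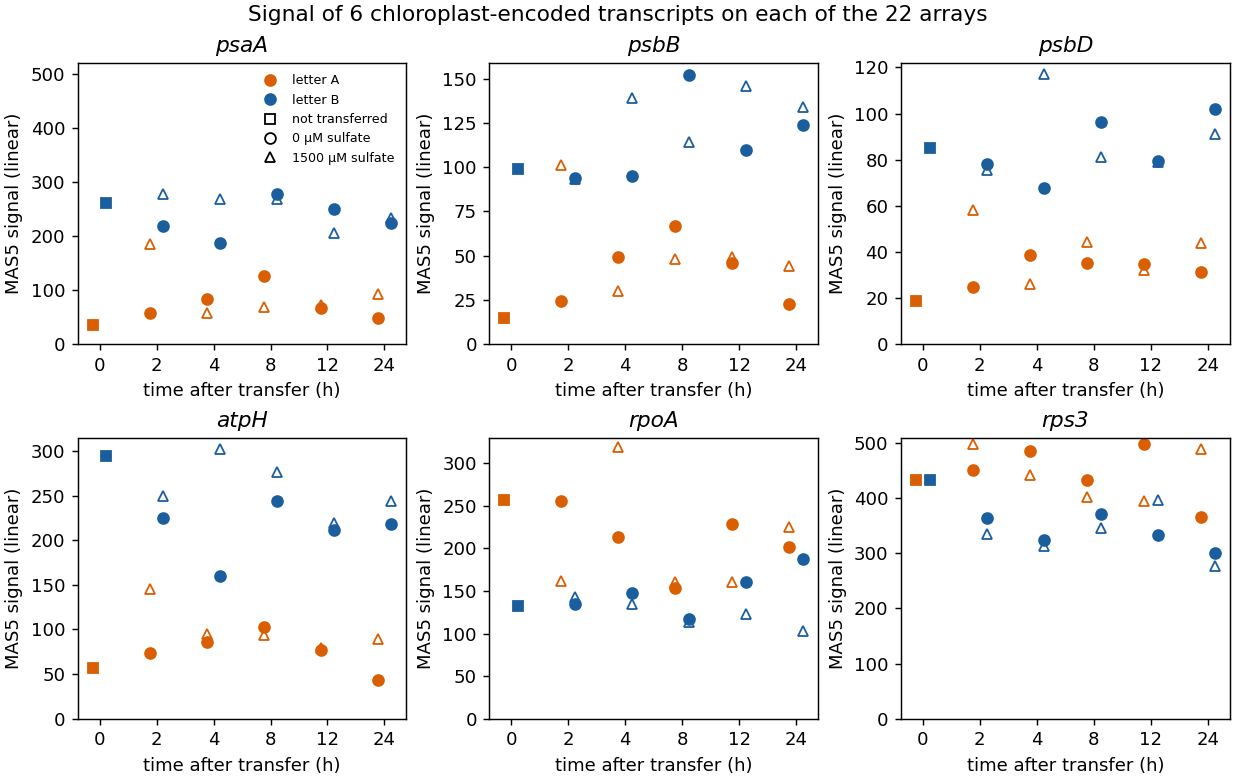
MAS5 signal (linear, vertical axis) against hours after transfer (evenly spaced, not to scale) for psaA, psbB, psbD, atpH, rpoA and rps3 on all 22 arrays. Orange marks letter A and blue letter B; squares are untreated roots, filled circles 0 µM and open triangles 1500 µM sulfate. psaA, psbD and atpH lie higher on every B array than on any A array, psbB does so outside the replete 2 h group, and rpoA is lower on the B array of each of the 11 groups.

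The first comparison was sulfate-free against sulfate-replete medium at the same time. Of the 57 chloroplast transcripts tested, 0 were called at each of the 5 times. The share of all probe sets called was 0% at both 2 h and 4 h and then 0.00733%, 0.125% and 0.359% at the 3 later times. At an unadjusted p under 0.05 the counts were 1, 0, 0, 1 and 0 of 57. The mean over the 5 times also gave 0 calls, against 0.476% of all probe sets, with 1 transcript at an unadjusted p under 0.05. The test that the medium effect varies with time called 0 of 57, against 0.0806% of all, and 0 reached an unadjusted p under 0.05.

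The median difference of the 57 transcripts moved to both sides of 0 over time: -0.09, -0.07, 0.12, 0.11 and -0.14 in order of time, against 0.00 to 0.02 for all probe sets. Each of these medians is sensitive to 1 array. Leaving out the replete 12 h array lettered A moved the 12 h median to -0.08, and leaving out its B partner moved it to 0.36. At 24 h the median was 0.18 without the sulfate-free array A and -0.39 without the sulfate-free array B.

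For psaA the difference between media was -0.93 ± 0.95 (SE) at 2 h, and -0.01, 0.42, 0.08 and -0.44 at the later times. The SE fell from 0.95 to 0.31 when the letter was included as a factor, and the 2 h difference still had an adjusted p of 0.999. At 24 h atpH differed by -0.53 ± 0.85, psbB by -0.41 ± 0.83 and psbD by -0.11 ± 0.68, all at an adjusted p of 1, so changes of about this size could not be separated from the spread between letters in the fit without it.

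The transcripts with the smallest p at each time were different genes. They were ndhC at 2 h (0.46 ± 0.15, adjusted p = 1), a subunit of the plastid NADH dehydrogenase-like complex, and ycf3 at 4 h (-0.71 ± 0.34, adjusted p = 1), an assembly factor of photosystem I. At 8 h it was rpl33 (0.38 ± 0.18, adjusted p = 0.999), a protein of the large ribosomal subunit, and at 12 h atpE (-0.25 ± 0.12, adjusted p = 1), the epsilon subunit of the ATP synthase. At 24 h and over all times it was psbZ, a small photosystem II subunit, with 0.40 ± 0.21 (adjusted p = 1) and 0.21 ± 0.10 (adjusted p = 0.762). With the letter as a factor, 0 of 57 were again called in each of these comparisons, where the shares of all probe sets were 0%, 0.00733%, 0.022%, 0.322% and 0.542% in order of time, 1.05% over all times and 0.154% for the variation with time.

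The second comparison was transferred roots, as the mean of both media, against untreated roots. Only a few transcripts were called, all of them as modest rises, and none was called lower. At 12 h, 2 of 57 were higher and 0 lower, where 5.77% of all probe sets were higher and 6.87% lower. At 2, 4, 8 and 24 h the count was 0 of 57, where 5.77%, 4.17%, 7.2% and 0.476% of all were called in either direction. The share of the transcripts called was thus below that of all probe sets, though close to it at 24 h. These counts come from the fit without the letter, where the spread between letters enters the SE. For psaA at 2 h the SE was 0.83, against 0.27 with the letter as a factor. At the 4 times with 0 calls, 1, 2, 2 and 4 transcripts had an unadjusted p under 0.05 at 2, 4, 8 and 24 h.

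The 2 that rose at 12 h encode ribosomal proteins. rps2, of the small subunit, read 121 and 155 on untreated arrays A and B, against 212 and 219 without sulfate and 166 and 219 with sulfate at 12 h. This was a rise of 0.53 ± 0.16 (adjusted p = 0.0418), and all 4 transferred arrays at 12 h were above both untreated ones. rpl33 read 214 and 323 on untreated arrays, against 387 and 373 without sulfate and 353 and 407 with sulfate, a rise of 0.51 ± 0.16 (adjusted p = 0.0403) with no overlap. Without untreated array A both calls were lost: rps2 then differed by 0.36 (adjusted p = 0.444) and rpl33 by 0.23 (adjusted p = 0.608). Without untreated array B, rps2 differed by 0.70 (adjusted p = 0.0502) and rpl33, still called, by 0.80. Without the filter neither was called, with adjusted p of 0.0671 for rps2 and 0.0639 for rpl33.

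With the letter as a factor the same differences gave 3 rises at 8 h (7.13% of all probe sets) and 4 at 12 h (11.9% of all). The additional genes were psaC, for the iron-sulfur subunit of photosystem I, and petG, for a small subunit of the cytochrome b6f complex. psaC read 15.3 and 27.5 untreated, 48.1 and 46.2 without sulfate at 8 h, and 28.7 and 47.8 with sulfate, a rise of 0.74 with an adjusted p of 0.0176 with the letter and 0.172 without it. petG rose by 0.50 at 8 h (adjusted p = 0.0387 with the letter, 0.384 without) and by 0.56 at 12 h (0.0143 and 0.256). At 12 h psaC was up by 0.58, with 0.0399 with the letter and 0.227 without, and rps2 at 8 h was up by 0.49, with 0.0206 and 0.0834.

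Each medium was also set against the untreated roots by itself. Without the letter, 0 of 57 were called in all 10 such comparisons, where 3.47%, 2.39%, 4.84%, 6.39% and 0.0366% of all probe sets were called with sulfate and 4.36%, 2.89%, 4.43%, 8.44% and 0.667% without, in order of time. With the letter as a factor, 1, 0, 1, 1 and 0 transcripts rose with sulfate, where 4.15%, 3.51%, 5.35%, 7.16% and 0.44% of all rose. Without sulfate 1, 0, 2, 5 and 0 rose, where 5.11%, 3.79%, 4.82%, 10.3% and 1.11% of all rose, and 0 fell in either medium. Those that rose with sulfate were psaA at 2 h, rps2 at 8 h and rpl33 at 12 h. For psaA the rise was 1.08 (adjusted p = 0.043 with the letter and 0.705 without). Its signal went from 35.7 to 186 on the A arrays and from 261 to 278 on the B arrays. The psaA rise thus rested mostly on the A arrays. Those that rose without sulfate were psaC at 2 h, psaC and rpl33 at 8 h, and rps2, ndhC, petG, rpl33 and rps18 at 12 h. All 10 comparisons share the 2 untreated arrays.

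As the mean of both media, the 4 marker transcripts were not called after transfer in either fit. psbB differed from untreated by 0.90 ± 0.72 at 8 h and 0.77 ± 0.72 at 12 h, and psaA by 0.62 ± 0.83 at 2 h and 0.61 ± 0.83 at 8 h. psbD differed by 0.41 ± 0.59 at 8 h and atpH by 0.25 ± 0.74. Untreated array A was the lowest of all 22 arrays for psaA, psbB and psbD, and untreated array B lay within the range of the other B arrays.

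Between successive times after transfer, 0 of 57 transcripts were called in each of the 4 steps. The share of all probe sets called was 1.88% from 2 to 4 h, 2.12% from 4 to 8 h, 0.63% from 8 to 12 h and 6.67% from 12 to 24 h, and 4, 2, 1 and 4 transcripts had an unadjusted p under 0.05. The member with the smallest p was rps4 (0.35 ± 0.10, adjusted p = 0.0997) from 2 to 4 h, psbZ (adjusted p = 0.169) from 4 to 8 h, atpE (-0.18 ± 0.08, adjusted p = 0.44) from 8 to 12 h and ndhC (-0.31 ± 0.11, adjusted p = 0.0993) from 12 to 24 h. With the letter as a factor, ccsA, a factor of cytochrome c assembly, rose by 0.33 (adjusted p = 0.0416) and rps4 by 0.35 (adjusted p = 0.0454) from 2 to 4 h, where 1.87% of all probe sets rose. In the same fit ndhC fell by 0.31 from 12 to 24 h (adjusted p = 0.0294), where 6.42% of all fell.

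In the fit without the letter 1 transcript, atpE, was called among the 5 times after transfer by the F-test (adjusted p = 0.0144). This was 1 of 57 against 20.3% of all probe sets. The atpE signal at 24 h was 737 and 748 without sulfate and 714 and 698 with sulfate, and at 4 h 990 and 1033 without and 904 and 861 with. The 24 h arrays were low and the 4 h arrays high, and these did not overlap. With the letter as a factor 11 of 57 were called, against 36.2% of all: atpE (adjusted p = 0.00428), psbL, ndhC, rpl33, ccsA, psbJ, rps18, psaB, psbZ, petG and rps4.

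**Figure D2:**
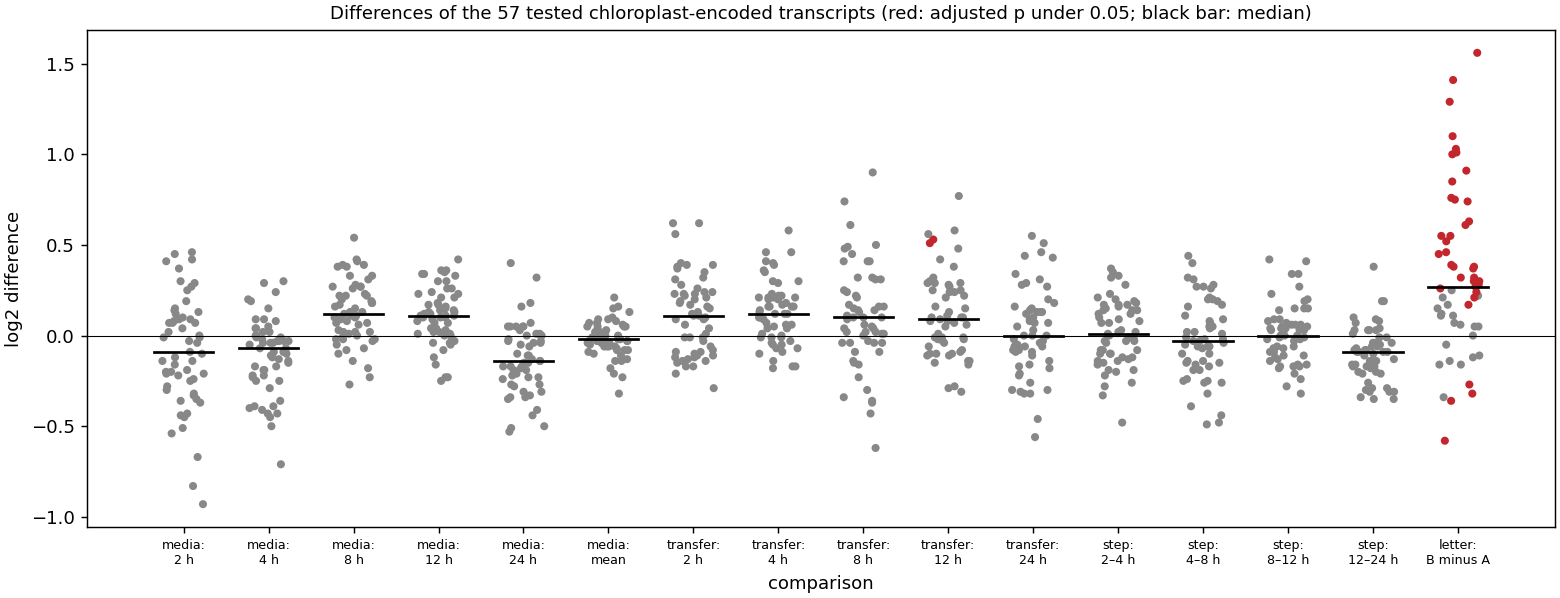
Log2 difference (vertical axis) of each of the 57 tested transcripts in every comparison (horizontal axis): sulfate-free minus sulfate-replete, transferred minus untreated, later minus earlier time, and letter B minus letter A. Grey points are single transcripts, red points have an adjusted p under 0.05 in the fit without the letter as a block, and black bars are medians. Red points appear at 12 h after transfer (2) and between letters (37).

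Of the 6 tested nuclear photosynthesis genes, 0 were higher and 5 lower at 12 h, where 6.87% of all probe sets were lower. At 2, 4, 8 and 24 h 1, 2, 2 and 0 of the 6 were lower. The shares of all probe sets lower at these times were 2.01%, 1.25%, 3.69% and 0.147%. At 12 h PSAN, a photosystem I subunit, fell by 1.73 (adjusted p = 1.06e-05). RCA, the activase of Rubisco, fell by 1.47 (0.000312) and LHCB4.1, a minor antenna protein of photosystem II, fell by 1.17 (0.00286). PSBY fell by 0.78 (0.0116) and PSBW fell by 0.52 (0.0383), both small photosystem II subunits, while ATPC1, the gamma subunit of the ATP synthase, differed by -0.38 with an adjusted p of 0.188. The median of these 6 was -0.97 where that of the chloroplast transcripts was 0.09 and that of all probe sets 0.01. The difference between the 2 sets of genes was not tested.

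The largest differences among chloroplast transcripts were between the letters, compared within the 11 groups. Of the 57 tested, 33 were higher on the B arrays and 4 lower, where 14.9% of all probe sets were higher and 14.5% lower. The share of the transcripts higher in B was 57.9%, and their median difference was 0.27 against 0 for all probe sets. At an unadjusted p under 0.05, 45 of 57 differed. The letter accounted for a median of 30.3% of the variance of a chloroplast transcript over the arrays and 8.1% of that of all probe sets. The group accounted for 30.5% and 57.5%. With 11 groups but 2 letters, the group takes more from spread alone, so its share cannot be set against that of the letter.

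The mean level of the 69 transcripts was higher on the B array in 11 of 11 groups. The difference was 0.61 in untreated roots. It was 0.31, 0.15, 0.32, 0.27 and 0.62 at 2, 4, 8, 12 and 24 h without sulfate, and 0.13, 0.37, 0.41, 0.46 and 0.24 with sulfate. Untreated roots and sulfate-free roots at 24 h thus had the widest gap and replete roots at 2 h the narrowest. Between 40 and 62 of the 69 transcripts were higher on the B array, depending on the group. The lowest counts were 40 in replete roots at 2 h and 41 in sulfate-free roots at 4 h. The share of all probe sets was not taken for single groups, so no excess is read from these counts. In all 11 groups 19 of 69 were higher on the B array, which held for 2.49% of all probe sets without a filter.

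Photosystem I showed the widest difference of a single transcript. Of its 5 tested members 4 were higher in B and 0 lower, with a median of 0.61. psaA was higher by 1.56 ± 0.13, a 2.95-fold difference in signal + 11 (adjusted p = 1.73e-06, higher in 11 of 11 groups). psaJ, a small subunit, was higher by 0.85, psaB, the partner of psaA in the reaction centre, by 0.61 and psaC by 0.46. psaI, another small subunit, differed by 0.12 with an adjusted p of 0.312. Both assembly factors were higher as well, ycf4 by 1.03 ± 0.11 (adjusted p = 1.02e-05) and ycf3 by 0.45.

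In photosystem II 8 of 14 tested members were higher in B and 1 was lower. psbB was higher by 1.29 ± 0.15 (adjusted p = 2.11e-05, 10 of 11 groups) and psbD by 1.1 ± 0.11 (adjusted p = 7.43e-06, 11 of 11 groups). The others were psbT by 1.01, psbH by 0.76, psbC by 0.75, psbE by 0.52, psbA by 0.38 and psbK by 0.32. psbC encodes the CP43 antenna protein, psbE a subunit of cytochrome b559 and psbA the D1 reaction centre protein. psbL, a small subunit, was lower in B by -0.27 ± 0.07 (adjusted p = 0.0104), with medians of 72.6 on A and 68.8 on B arrays and A higher in 10 of 11 groups.

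The complexes between and after the photosystems were mixed. In the ATP synthase 3 of 5 tested members were higher in B: atpH by 1.41 ± 0.11 (2.65-fold, adjusted p = 4.04e-07), atpF, a stalk subunit, by 1 and atpA, the alpha subunit, by 0.27. The beta and epsilon subunits atpB and atpE, which share a cluster of their own, differed by 0.05 and -0.05, with adjusted p of 0.473 and 0.411. In the cytochrome b6f complex 1 of 4 was higher, petG by 0.55, and petB, for cytochrome b6, differed by 0.05 and petA, for cytochrome f, by 0.06. In the NDH complex 3 of 5 were higher, between 0.21 and 0.55, and ndhC and ndhI differed by -0.12 and -0.16 without being called. rbcL, for the large subunit of Rubisco, was higher by 0.32 (adjusted p = 0.00151).

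Transcripts of the plastid gene expression machinery went both ways. Among 3 tested subunits of the RNA polymerase, rpoC1 was higher in B by 0.91 and rpoC2 by 0.24, while rpoA was lower. rpoA, the alpha subunit, read 257 untreated, 255, 213, 153, 228 and 202 without sulfate and 162, 319, 161, 160 and 225 with sulfate on the A arrays. On the B arrays it read 132 untreated, 135, 147, 117, 160 and 188 without sulfate and 143, 135, 113, 123 and 103 with sulfate. The B array was lower in 11 of 11 groups, although the ranges of the letters overlapped. The rpoA difference was -0.58 ± 0.09 (adjusted p = 0.000249, A 1.5-fold above B in signal + 11).

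Of 13 tested ribosomal protein genes 5 were higher in B, by 0.26 to 0.38, and 2 were lower. The lower ones were rps3 by -0.36 ± 0.07 (adjusted p = 0.0011) and rps19 by -0.32 ± 0.09 (adjusted p = 0.015), both of the small subunit. rps3 read 365 to 498 with a median of 441 on the A arrays, and 277 to 432 with a median of 335 on the B arrays. Its A array was the higher one in 9 of 11 groups. rps4 had a difference of 0.00 and medians of 318 on both letters.

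Among the remaining genes, 4 of 5 tested were higher in B. accD, for a subunit of the acetyl-CoA carboxylase of fatty acid synthesis, read 150 to 260 on the A arrays and 305 to 399 on the B arrays, with no overlap and a difference of 0.74. cemA, an envelope membrane protein, was higher by 0.63, clpP, the protease subunit, by 0.39 and ccsA by 0.17, and the intron maturase matK differed by 0.22 with an adjusted p of 0.106. The 3 tested genes listed as transcribed by the nuclear-encoded polymerase, accD, rpoC1 and rpoC2, were all higher in B. In all, 7 of the 69 transcripts had every B array above every A array: psaA, psaJ, psbD, atpH, atpI, rpoC1 and accD. Over all probe sets without a filter this held for 24, or 0.106%.

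**Figure D3:**
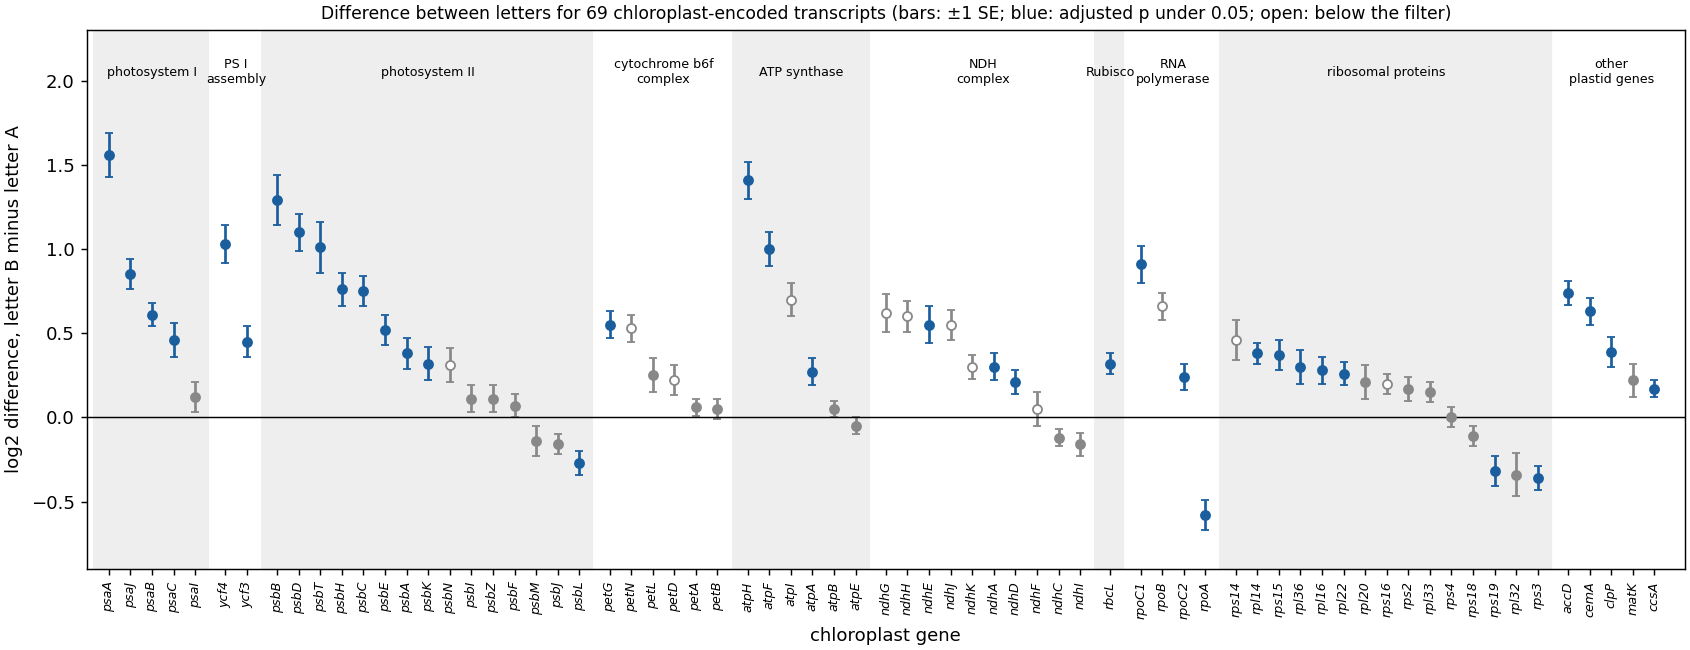
Log2 difference of letter B minus letter A (vertical axis, bars ±1 SE) for the 69 chloroplast transcripts, grouped by the complex or process they belong to (horizontal axis). Blue points have an adjusted p under 0.05, grey filled points do not, and open points are the 12 below the filter, shown with their values from the fit without a filter. The highest point is psaA at 1.56 and the lowest rpoA at -0.58.

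The 12 transcripts below the filter were examined in a fit without it. There, 10 of the 12 were higher in B, and ndhF (0.05) and petD (0.22) were not called. atpI, another membrane subunit of the ATP synthase, read 0.313 to 9.23 on the A arrays and 10.2 to 23.5 on the B arrays, with a difference of 0.70 (adjusted p = 0.000492). rpoB, the beta subunit of the polymerase, was higher by 0.66, ndhG by 0.62 and ndhH by 0.60. Over all 69 this fit called 40 higher and 4 lower, where 8.75% of all probe sets were higher and 7.89% lower, while ndhD, rpoC2 and rpl36 were no longer called.

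Within 1 cluster the estimated differences varied from gene to gene, and differences between genes were not tested. In the cluster rps2, atpI, atpH, atpF and atpA, the differences in gene order were 0.17, 0.70, 1.41, 1 and 0.27, highest at atpH. atpI was below the filter, so its value comes from the fit without it, and the scale understates changes of such weak signals. The same holds for petD in the next cluster. In the cluster that starts with psbB they were 1.29 for psbB, 1.01 for psbT, 0.76 for psbH, 0.05 for petB and 0.22 for petD, highest at its start. The cluster psbE, psbF, psbL and psbJ gave 0.52, 0.07, -0.27 and -0.16, and psbD, psbC and psbZ gave 1.1, 0.75 and 0.11.

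The ribosomal protein cluster went both ways. Members with a probe set of their own gave -0.32 for rps19, 0.26 for rpl22, -0.36 for rps3 and 0.28 for rpl16. Further along were 0.38 for rpl14, 0.30 for rpl36 and -0.58 for rpoA at its end, and all 7 of these were called. The cluster also holds rpl23 and rpl2, whose probe sets match several copies. They differed by 0.21 (adjusted p = 0.0602) and -0.01 (adjusted p = 0.939) and were not called. In the cluster from accD to petA the values were 0.74 for accD, 0.12 for psaI, 1.03 for ycf4, 0.63 for cemA and 0.06 for petA. psaJ, rpl33 and rps18 gave 0.85, 0.15 and -0.11. Differences between neighbouring genes were not tested, and these genes were picked out by their place in a cluster.

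**Figure D4:**
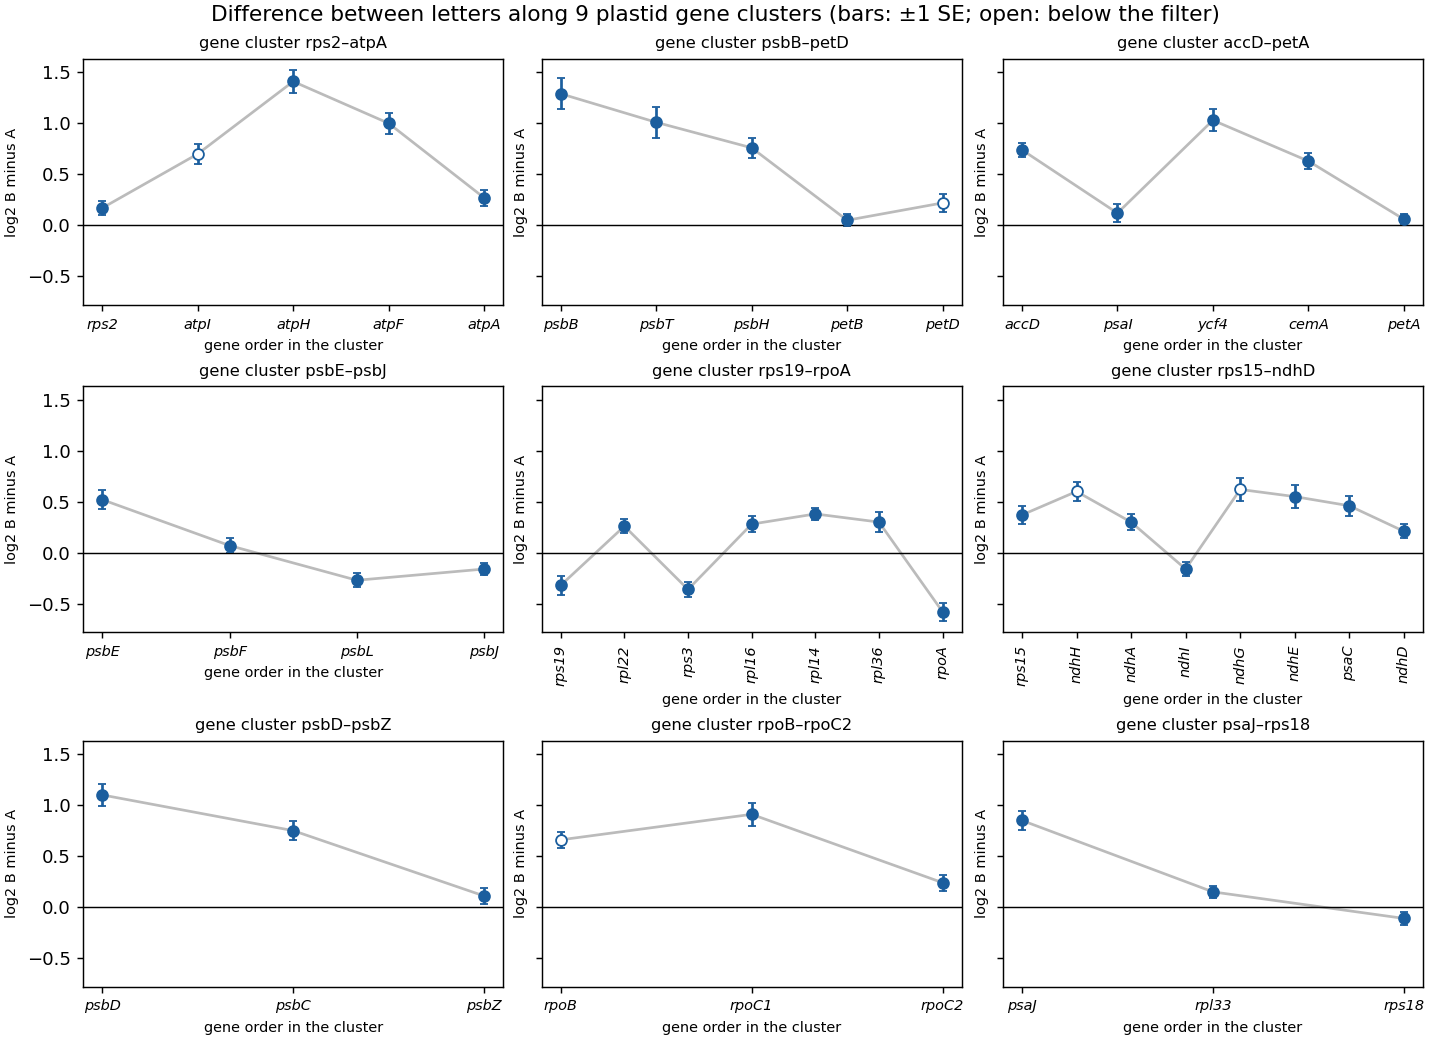
Log2 difference of letter B minus letter A (vertical axis, bars ±1 SE) along 9 chloroplast gene clusters, with genes in transcription order (horizontal axis, evenly spaced). Open points are genes below the filter. The clusters led by psbB, psbD and psaJ run from high to near 0 or below, the one from rps2 to atpA peaks at atpH with 1.41, and the one from rps19 to rpoA crosses 0 repeatedly.

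For each gene the difference between letters was followed over the 11 groups, after removing its mean, and set against the mean of the other members. The closest profiles were those of atpH (r = 0.92), ccsA (r = 0.87) and psbT (r = 0.87), and the least close those of ndhJ (r = -0.30), rbcL (r = -0.09) and rpl16 (r = -0.08). rps3, which was lower on the B arrays, had r = 0.72, while rpoA had -0.02 and rps19 0.15. These values describe 11 differences that share arrays and scaling. Over the 69 genes, the difference between letters was related to the mean log2 level with r = -0.30 (Spearman rho = -0.39) and to log2 gene length with r = 0.20 (rho = 0.20), given as a description across genes that are not independent.

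The difference between letters did not depend detectably on the medium. The interaction of letter and medium called 0 of 57 transcripts, 0 had an unadjusted p under 0.05, and 0% of all probe sets were called. The interaction of letter and time called 0 of 57, against 1.47% of all probe sets, and 7 had an unadjusted p under 0.05. The smallest adjusted p was 0.0797, for psbE. Both tests were chosen after the letter difference had been seen.

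Other measurements moved with the letter. The mean level of the 23 mitochondrial probe sets was higher on the B array in 11 of 11 groups, and of 8 tested 6 were higher and 0 lower, with a median difference of 0.27. Among these were ccb382, a cytochrome c maturation gene, by 0.45 and nad1, a subunit of complex I, by 0.38, while nad4, another subunit of complex I, differed by -0.01. The probe sets of plastid genes with several copies gave 1 higher of 6 tested, a probe set of rps12 by 0.34, and a second rps12 probe set differed by 0.09.

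The mean level of the nuclear photosynthesis genes was higher on the B array in 4 of 11 groups and lower in 7. Of 6 tested, RCA was higher by 0.33 and PSBY by 0.20, and LHCB4.1 was lower by -0.29 (adjusted p = 0.0136). Of 37 listed nuclear genes for plastid transcription and RNA metabolism, 3 were matched and 2 tested, and CP29B, a chloroplast RNA-binding protein, was higher in B by 0.21 (adjusted p = 0.0144) while CRP1 differed by 0.10 with an adjusted p of 0.328. The root hair gene EXPA18 was lower in B by -0.40 (adjusted p = 0.00247), and the mitotic kinase AUR1 was higher by 0.28 (adjusted p = 0.000594).

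**Figure D5:**
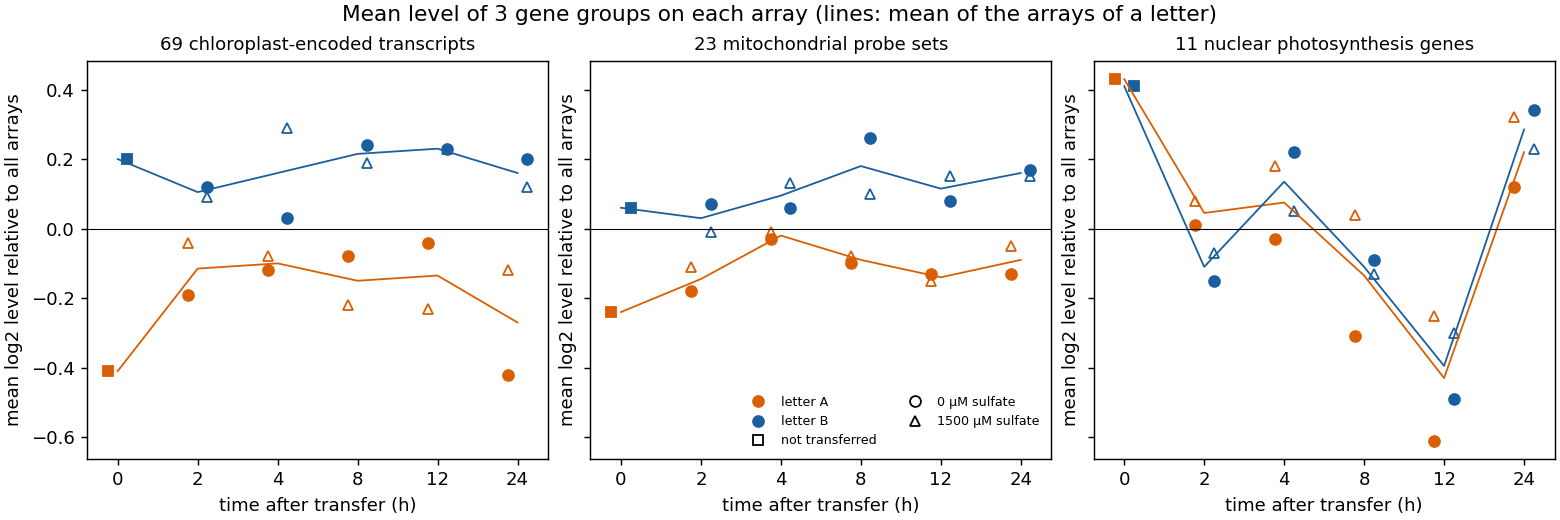
Mean log2 level relative to the mean over all arrays (vertical axis) against hours after transfer (evenly spaced) for the 69 chloroplast transcripts, 23 mitochondrial probe sets and 11 nuclear photosynthesis genes, 1 point per array. Orange is letter A and blue letter B, lines join the means of the arrays of a letter, and symbols give the medium. The letters separate in the first and second panels, with B higher in 11 of 11 groups, and the third panel falls to its lowest values at 12 h on both letters.

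The array's control probe sets differed between letters in most groups, to unequal degrees and without a test. The 25S ribosomal RNA control had a median signal of 13.7 on the A and 24 on the B arrays, higher on B in 8 of 11 groups, and the 5S control 19.8 and 55.9, higher on B in 7 of 11 groups. The log2 ratio of the 3′ to the 5′ control probe set of GAPDH had a median of 0.07 on A and -0.19 on B, lower on B in 9 of 11 groups. The same ratio for actin was 2.80 and 2.54, lower on B in 10 of 11 groups, and for ubiquitin 1.11 and 0.99, lower in 8 of 11. The part of ribosomal RNA content, RNA integrity, labelling or any batch that the letters may mark in the difference between letters was not tested.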

How the data were processed

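Values are MAS5 signals, an intensity per probe set deposited by the authors in 1 table for 22 ATH1 arrays; per the submitters' processing notes they come from MAS5, for which no source used here gives a version or scaling target. The trimmed mean (2% cut at each end) was 100.01 on every array, and the median signal was 42.46 to 46.14. Depth does not apply; the number of arrays limits precision, with a median SE of 0.172 for a difference between media at 1 time and 0.0632 between letters.

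Signals were tested as log2(signal + 11), 11 being 0.25 of the pooled median signal of 43.9, after leaving out 64 control probe sets and those below the 40th percentile. limma 3.58.1 in R 4.3.3 (lmFit, eBayes with trend) was fitted to all 22 arrays in 11 groups, with Benjamini-Hochberg adjustment over 13648 probe sets. The difference between letters came from a fit with group and letter as factors, after tests on simulated data. Figures were drawn with matplotlib 3.10.9.

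Whether letters pair arrays was checked on the difference A minus B over probe sets: between media it correlated at r = 0.631, 0.607, 0.225, 0.316 and 0.429 at 2, 4, 8, 12 and 24 h. As all 5 exceed 0.1, the letters were taken to pair the arrays. The counts given first for media, transfer, steps and times are still those of the fit without the letter. Values with the letter as a replicate block stand beside the results they change.

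The members and all gene lists were chosen with earlier results of these data known. Genes named are psaA, psbB, psbD and atpH, up to 5 called rises and 5 called falls per comparison, the smallest p where none was called, and the 3 most and 3 least similar profiles, taken after removing each gene's mean difference between letters, without which the ranking restates that difference; further genes were named after their values were seen, by role or cluster. Chloroplast and mitochondrial genes were identified through the probe annotation and RefSeq gene table; mitochondrial genes were matched by symbol, a step set after the files were seen. Alternatives were pseudocounts of 1 and 32, other filters and scalings, the replicate block, fewer arrays and leaving out each array.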

Additional observations from a re-analysis of the deposited data

Results flagged for a closer look

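The 5S ribosomal RNA control probe set, which enters no comparison, drew attention because its highest signal among transferred arrays was 186 where the untreated arrays A and B read 21.7 and 17.2. Of 20 transferred arrays, 13 lay above both untreated arrays. For the 25S control, 0 of 20 transferred arrays were above both untreated values of 13.7 (A) and 84.2 (B). Untreated array B held the highest 25S signal of all arrays, and the highest transferred array, sulfate-free 4 h B, read 30.6. The count of 0 thus rests on untreated array B alone and shows no contrast with the 5S control.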

How the results depend on the processing

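The 37 differences between letters, 33 higher and 4 lower in B, were all called in the same direction with quantile normalization, arrays scaled to 1 median, and pseudocounts of 1 and 32, and 34 of the 37 were called without a filter, where more probe sets were tested. Leaving out 1 array gave 33 to 40 calls, 28 to 34 higher and 4 to 7 lower. Comparisons of media gave 0 calls in every alternative run, and the replicate block changed no call in them. With the letter as a replicate block, calls went from 0 to 3 at 8 h and from 2 to 4 at 12 h after transfer, from 0 to 2 from 2 to 4 h, from 0 to 1 from 12 to 24 h, and from 1 to 11 for the F-test over times. Apart from these and the rises given for each medium against untreated roots, it changed no call of a chloroplast transcript in the comparisons between groups.

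Other alternatives changed small counts. At 12 h after transfer 0 were called without a filter, where more probe sets were tested (adjusted p 0.0671 for rps2 and 0.0639 for rpl33), and 1 with only the arrays compared (rpl33 at 0.05), which also gave 1 at 8 h and 3 for the F-test; scaling to 1 median gave 3 for the F-test. The cause of the last was not tested. Leaving out 1 array gave 0 to 2 calls at 12 h, 0 to 1 at 4 h and 8 h after transfer and from 4 to 8 h, and 1 to 4 for the F-test. The 0 at 12 h came without untreated A, sulfate-free 12 h A or B, replete 12 h B, or replete 24 h A or B, and the 4 for the F-test without sulfate-free 4 h B. Medians after transfer moved most: at 12 h, -0.20 without untreated A and 0.44 without untreated B. The weak signals of the 12 transcripts below the filter limit their precision.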
